A study of Mus musculus with 16 samples.

Results

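The 9 genes described here, of 47643 in the count files, are widely used marks of mouse B cells: Ighm, Cd79a, Cd79b, Ms4a1, Fcmr, Bank1, Blk, Pax5 and Ebf1. They were taken from a list of names, drawn up with earlier results of these data known, and each was read in all 16 libraries. Every mouse was C57BL/6 wild type, so genotype and strain were the same in all groups. PLF are the cells washed from the peritoneal cavity. BMDM are macrophages derived from bone marrow. The mexAM are alveolar macrophages grown ex vivo, and BALF are the cells washed from the airways. Mice 1, 2 and 4 gave 1 library each to all of these groups. Alveolar macrophages from 2 lavage pools were also cultured: pool 1 was read at passage 8 and again at passage 13, and pool 2 was read at passage 5 and again at passage 10. A pool holds an unstated number of animals, and its passages are not independent. Age, sorting of the lavage cells, culture medium and the passage of mexAM were not given in the sources used here.

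A B cell carries its antigen receptor as a membrane immunoglobulin of heavy and light chains, held with the Cd79a and Cd79b proteins, which carry the signal into the cell. Blk, a Src-family kinase, and Bank1, an adaptor, act below the receptor. Ms4a1 is the surface protein CD20, and Fcmr binds IgM. Ebf1 and Pax5 are the transcription factors that specify B cells and hold them to that fate. The mouse peritoneal cavity is known for its large B cell compartment, with B-1 and B-2 cells beside its resident macrophages, whereas the airway lumen of an unchallenged mouse holds mostly alveolar macrophages.

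Counts assigned to genes ran from 827791 to 2884679 per library. Libraries were read at the 3' end of messenger RNA, so a transcript gives reads whatever its length, and CPM (counts scaled to the library's total of gene counts) were not divided by length. The pan-macrophage gene Lyz2, which encodes lysozyme, averaged 14376 CPM in PLF, 15411 in BMDM, 15496 in mexAM, 11607 in the pool cultures and 12683 in BALF. Lyz2 RNA was thus abundant in every group, but a single gene does not measure the macrophage content. The predicted gene Gm42418 took 13.3% of the counts of the PLF library of mouse 1, against 4.08% and 3.81% in PLF of mice 2 and 4. In bulk libraries, fewer cells of a type and less RNA per cell cannot be told apart.

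RNA of the B cell genes was concentrated in PLF. The 9 genes together held 2861, 3006 and 2662 CPM in PLF of mice 1, 2 and 4 (mean 2843 ± 173, SD, n = 3). In BMDM they held 145, 124 and 111 CPM (127 ± 17.2). In mexAM they held 2.90, 2.92 and 4.94 CPM, in the pool cultures 3.85, 6.04, 10.9 and 4.16 CPM, and in BALF 4.21, 2.03 and 2.32 CPM. The groups fell into 3 levels that did not overlap: PLF, then BMDM, then the lavage-derived alveolar cells and their cultures, whose ranges overlapped one another. As a share of the level in PLF, with the counts of each group pooled, 4.54% was found in BMDM, 0.131% in mexAM, 0.193% in the pool cultures and 0.108% in BALF.

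All 9 genes were called higher in PLF in each of the 4 comparisons by edgeR's quasi-likelihood test with Benjamini-Hochberg adjustment over all genes tested. The share of all genes called higher was 18.0% over BMDM, 29.6% over mexAM, 27.0% over the pool cultures and 20.8% over BALF. The share called lower was 18.4%, 28.4%, 26.4% and 19.5% in that order, or 36.5%, 57.9%, 53.4% and 40.3% in either direction. The 4 comparisons share the PLF libraries and are not independent. Cd79a had counts in PLF only, and Blk had none in BMDM, mexAM and BALF. Such genes passed the filter on low counts through PLF and could only be called higher there. The same holds for genes of the other lists counted in PLF alone. The 9 genes were also chosen with earlier results known, so their calls describe them and are no independent support. Many folds could not be fitted with any precision because the other group had few counts or none. Where a group had 0 counts, the fold is at least that reached if the whole group had held 3 counts, and where it had 1 to 3, it is a ratio of counts with its 95% exact (Clopper-Pearson) interval. With bounds and ratios used in this way, the 9 genes had a median log2 fold change of 6.21 over BMDM and 8.44 over mexAM. It was 9.24 over the pool cultures and 8.25 over BALF. Bounds stood in for 2, 5, 1 and 4 of the genes in that order. Depth thus limits these medians, and they do not rank the groups. The medians of the fitted values were 6.89, 9.42, 9.12 and 9.37. The median of all genes tested lay at -0.01, 0.02, 0.01 and 0.01 in the same order. The highest adjusted p of the 9 genes belonged to Cd79a in all 4 comparisons, at 0.000178, 6.53e-05, 0.000119 and 0.000437 in that order (edgeR, as above).

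**Figure D1:**
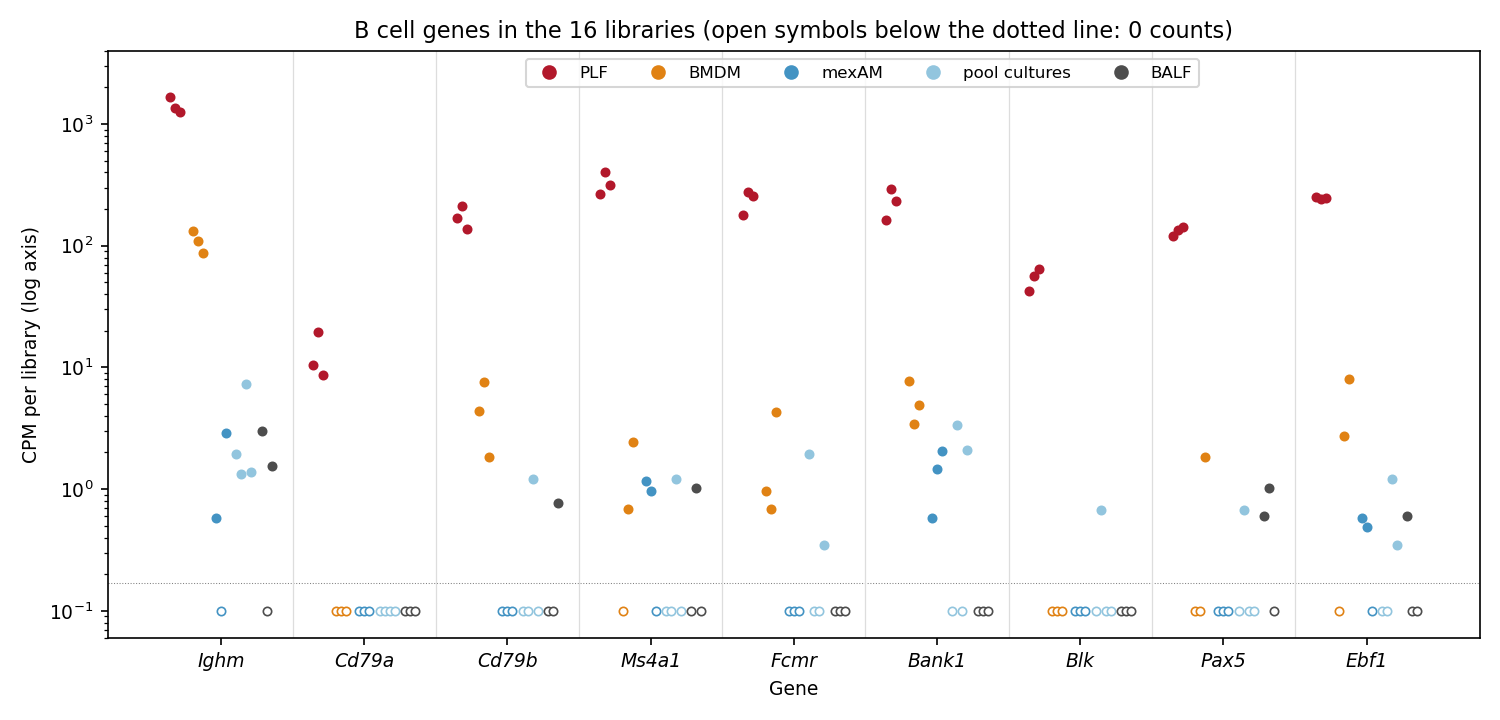
CPM of each B cell gene in each library on a log axis, with groups from left to right as PLF, BMDM, mexAM, pool cultures and BALF; 1 point is 1 library, and open points below the dotted line had 0 counts. The 3 PLF points lie above all others for every gene, and Ighm is the only gene whose BMDM points stand near 100 CPM.

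Ighm, the constant region of the IgM heavy chain, was the most counted of the genes. Its gene lies on chromosome 12, at 113418558 to 113422730 on the minus strand (GRCm38). Its level was 1665, 1364 and 1260 CPM in PLF, and 132, 109 and 87.6 CPM in BMDM. It was 0.581, 0 and 2.88 CPM in mexAM, 1.93, 1.34, 7.25 and 1.39 CPM in the pool cultures, and 3.004, 0 and 1.54 CPM in BALF. No library outside PLF and BMDM passed 7.25 CPM. The log2 fold change of PLF was 3.75 ± 0.33 (SE) over BMDM, 10.02 ± 0.49 over mexAM, 9.24 ± 0.52 over the pool cultures and 9.37 ± 0.50 over BALF. The adjusted p-values were 2.33e-07, 1.04e-10, 1.69e-10 and 5.51e-10 in that order (edgeR's quasi-likelihood test, Benjamini-Hochberg). Single libraries of the low groups set the largest folds: without mexAM of mouse 4 the value over mexAM was 11.94, and without BALF of mouse 1 the value over BALF was 10.35.

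Cd79a and Cd79b encode the paired signalling chains of the receptor, and their counts were far apart. Cd79b had 169, 213 and 136 CPM in PLF, against 4.35, 7.54 and 1.84 CPM in BMDM. In mexAM it had 0 counts in 3 libraries, and the pool cultures and BALF each held 1 count. Cd79a had 16, 22 and 14 counts in PLF, or 10.4, 19.6 and 8.63 CPM, and 0 counts in all 13 other libraries. Within PLF, Cd79b thus had 16.3, 10.9 and 15.8 times the counts of Cd79a in mice 1, 2 and 4. Neither gene's annotated exons overlap those of another gene, and why the paired chains differ in counts was not tested. PLF exceeded BMDM by 5.28 ± 0.36 on the log2 scale for Cd79b and by at least 20.9-fold for Cd79a. Over BALF, Cd79b had a ratio of 663 (119 to 26228), and Cd79a was at least 16.0-fold higher in PLF.

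Ms4a1 and Fcmr, the surface proteins, were also highest in PLF. Below PLF the groups were not separate. For Ms4a1 the levels in BMDM overlapped those of mexAM, the pool cultures and BALF, and for Fcmr those of the pool cultures. Ms4a1 had 265, 407 and 315 CPM in PLF, 0, 0.686 and 2.45 CPM in BMDM, and 1.16, 0.973 and 0 CPM in mexAM. The pool cultures and BALF held 1 count each. Its log2 fold change in PLF was 8.31 ± 0.48 over BMDM and 8.77 ± 0.50 over mexAM. Without BMDM of mouse 4 the value over BMDM was 9.85 and without that of mouse 1 it was 7.60, and without mexAM of mouse 4 the value over mexAM was 8.08. Fcmr had 177, 276 and 255 CPM in PLF and 0.967, 0.686 and 4.29 CPM in BMDM. It had 0 counts in all libraries of mexAM and BALF, where the floor of 3 counts stands at 0.483 and 0.760 CPM. PLF was at least 480-fold above mexAM and at least 305-fold above BALF. Over BMDM its log2 fold change was 6.89 ± 0.41, and 8.02 without BMDM of mouse 4.

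Bank1 and Blk act inside the cell, below the receptor. Bank1 had 162, 291 and 233 CPM in PLF, 7.74, 3.43 and 4.90 CPM in BMDM, and 0.581, 1.46 and 2.06 CPM in mexAM. In the pool cultures its counts were 0 and 5 at the earlier and later passage of pool 1 and 0 and 6 for pool 2, and BALF had 0 counts. The log2 fold change of PLF was 5.37 ± 0.31 over BMDM and 7.18 ± 0.37 over mexAM, and PLF was at least 293-fold above BALF. Blk had 42.8, 56.2 and 64.1 CPM in PLF and 0 counts in the 9 libraries of BMDM, mexAM and BALF. A single count was found in the pool cultures. PLF was at least 93.5-fold above BMDM, at least 112-fold above mexAM and at least 71.5-fold above BALF for Blk. Blk and Cd79a were the only members with 0 counts in all 3 BMDM libraries.

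Pax5 and Ebf1 had the smallest spread of the genes among the PLF mice. With 3 values, so small a spread can arise by chance, and whether these genes vary less than the others was not tested. Ebf1 had 251, 244 and 248 CPM in PLF, with a coefficient of variation of 1.26%, and Pax5 had 119, 136 and 142 CPM, with one of 8.73%. In BMDM, Ebf1 had 0, 2.74 and 7.97 CPM and Pax5 had 0, 0 and 1.84 CPM, so both were highest in the library of mouse 4. In mexAM, Ebf1 had 2 counts in all and Pax5 none. In BALF, Ebf1 had 1 count and Pax5 had 2. Over BMDM, PLF was higher by 6.21 ± 0.50 on the log2 scale for Ebf1, by 7.70 without BMDM of mouse 4 and by 5.50 without that of mouse 1. For Pax5 the ratio over BMDM was 227 (77.3 to 1105), with all 3 of the BMDM counts in mouse 4. Exons of 2 genes on the other strand cover 8.60% of the exon bases of Pax5, none of them in its last 500 bases, and whether the counting used strand is not given in the sources used here.

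The RefSeq table of promoters (GRCm38.p6) held 5 of the 9 genes: Fcmr, Bank1, Pax5, Cd79a and Ebf1. Cd79b, Ighm, Ms4a1 and Blk were not matched. The 250 bases upstream of the start are shown for a regulator and an adaptor that were both highest in PLF and whose windows hold no annotated exon, Pax5 at chr4:44710695-44710944 and Bank1 at chr3:136326067-136326316, both on the minus strand and written 5′ to 3′.
Pax5: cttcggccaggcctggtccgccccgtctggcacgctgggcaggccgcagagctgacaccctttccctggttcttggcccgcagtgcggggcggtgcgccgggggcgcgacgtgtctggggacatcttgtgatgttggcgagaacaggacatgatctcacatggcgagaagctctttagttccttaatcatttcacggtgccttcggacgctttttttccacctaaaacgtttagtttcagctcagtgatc
Bank1: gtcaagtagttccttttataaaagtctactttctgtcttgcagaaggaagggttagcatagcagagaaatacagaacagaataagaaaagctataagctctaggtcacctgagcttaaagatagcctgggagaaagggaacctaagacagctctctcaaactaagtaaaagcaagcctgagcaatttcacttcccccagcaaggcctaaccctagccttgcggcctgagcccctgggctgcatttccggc
These windows and that of a second Ebf1 start were searched on both strands for 3 motifs, which were chosen after the sequences were seen: the octamer ATTTGCAT, an ETS motif AGGAAGTG and an EBF motif of TCCC and GGGA with any 2 bases between them. None of the 3 windows held a match, so no letters are in capitals. Of 32851 windows of the same length in the table, 1.60% held the octamer, 3.14% the ETS motif and 0.779% the EBF motif. The absence of a match says only that these letters are not in these windows.

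**Figure D2:**
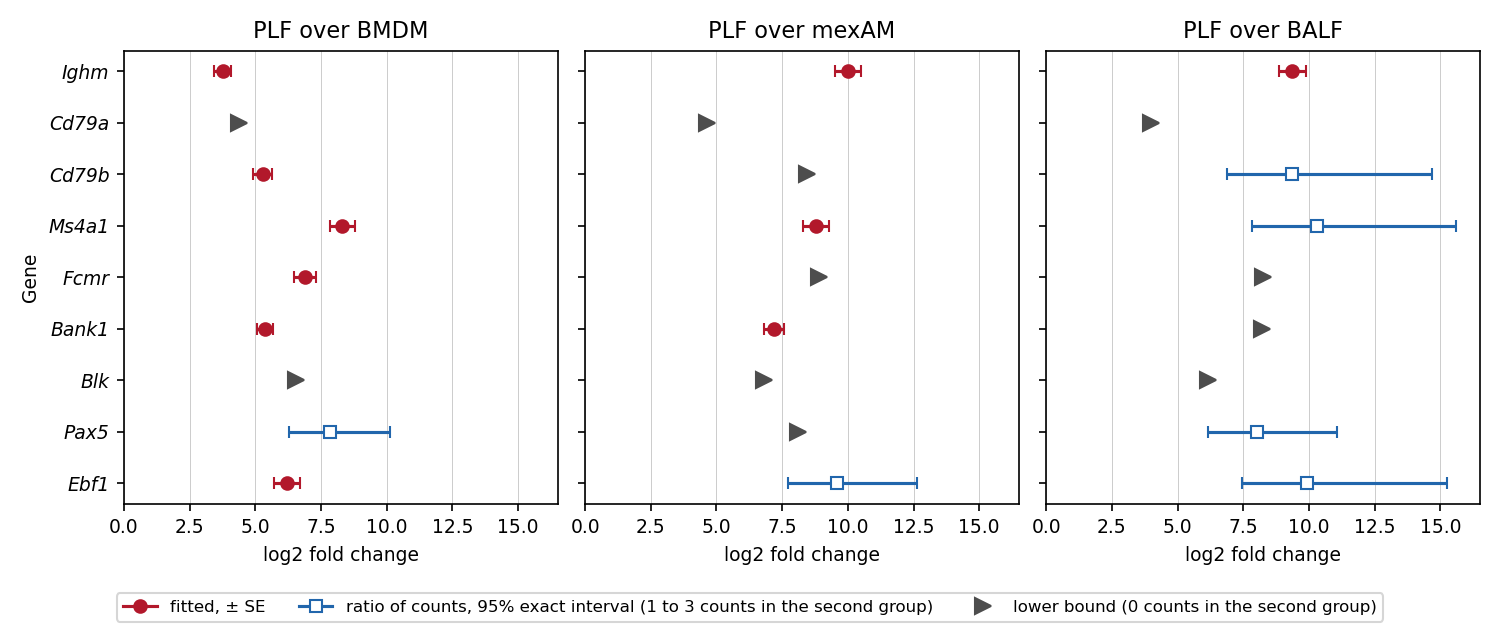
Log2 fold change of PLF over BMDM, mexAM and BALF for each B cell gene; circles are fitted values with their SE, squares are ratios of counts with 95% exact intervals, and triangles are lower bounds where the second group had 0 counts. Every value lies above 0, and the smallest fitted one is Ighm over BMDM at 3.75.

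By mean level in PLF the order was Ighm at 1430 CPM, Ms4a1 at 329, Ebf1 at 248, Fcmr at 236, Bank1 at 229, Cd79b at 173, Pax5 at 132, Blk at 54.4 and Cd79a at 12.9 CPM. The SDs over 3 mice were 210, 71.7, 3.13, 51.8, 64.4, 38.6, 11.5, 10.8 and 5.90 CPM in that order. Neighbours from Ebf1 to Pax5 had ranges that overlapped: Ebf1 with Fcmr, Fcmr with Bank1, Bank1 with Cd79b, and Cd79b with Pax5. Ighm and Ms4a1 lay above the next gene in every mouse, with Ms4a1 at 265 to 407 CPM and Ebf1 at 244 to 251 CPM. Blk and Cd79a overlapped with no neighbour.

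The PLF mice did not share 1 profile of these genes. Ighm was highest in mouse 1, where it made up 58.2% of the counts of the 9 genes, against 45.4% and 47.3% in mice 2 and 4. Of the 9 genes, 5 were lowest in mouse 1: Pax5, Ms4a1, Fcmr, Bank1 and Blk. For comparison, 51.1% of the 7721 genes with at least 10 CPM in PLF were lowest in that library, so the share among the 9 genes stands near the background. Without Ighm the sum of the others was 1197, 1642 and 1402 CPM in mice 1, 2 and 4. The part of the high Gm42418 content of mouse 1 in these differences was not tested. With Gm42418 left out of the totals, the 9 genes averaged 3068 CPM in PLF.

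**Figure D3:**
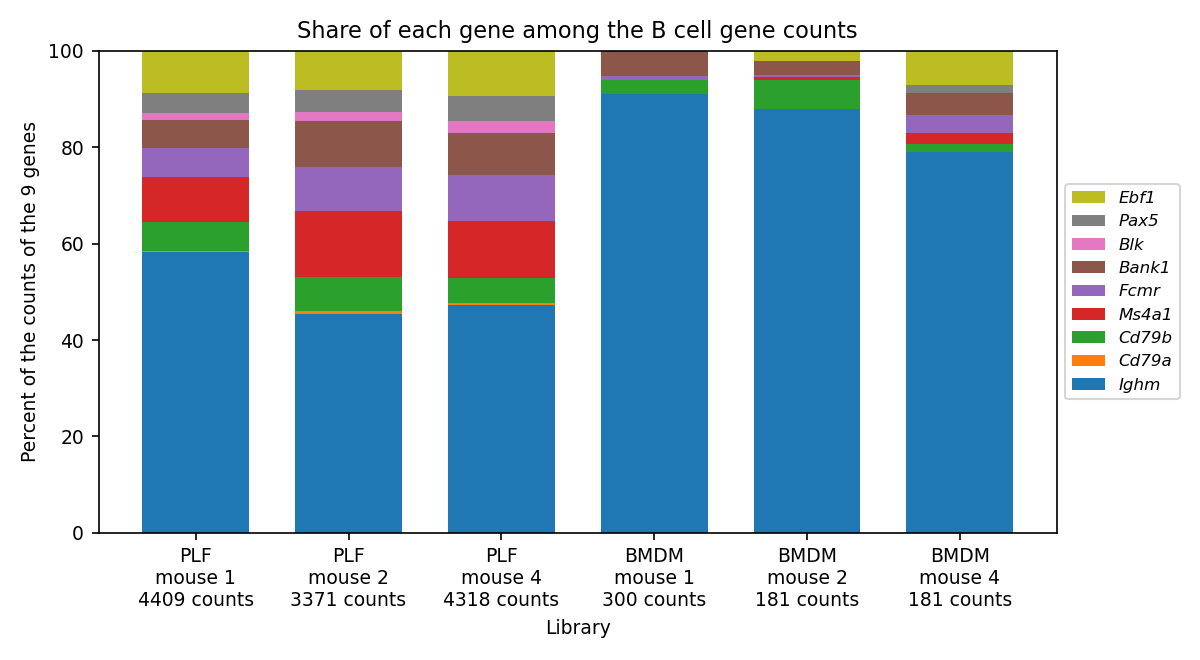
Share of each gene among the counts of the 9 B cell genes in the PLF and BMDM libraries, with the number of counts under each bar; a bar adds up to 100%. Ighm makes up 45.4% to 58.2% of the PLF bars and 79.0% to 91.0% of the BMDM bars.

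In BMDM, a culture grown from marrow, Ighm stood apart from the other genes. It made up 91.0%, 87.8% and 79.0% of the 9 genes' counts in mice 1, 2 and 4. The comparisons of BMDM with the alveolar groups were added after its levels were seen. The log2 fold change of Ighm was 6.27 ± 0.49 in BMDM over mexAM and 5.62 ± 0.51 over BALF. The adjusted p-values were 2.36e-08 and 2.35e-07 (edgeR's quasi-likelihood test, Benjamini-Hochberg). Without mexAM of mouse 4 the value over mexAM was 8.20, and without BALF of mouse 1 the value over BALF was 6.58. Over mexAM, 5 of the 9 genes were called higher in BMDM, against 23.0% of all genes, and over BALF 4 were, against 19.3%. In either direction, 44.6% of all genes were called over mexAM and 37.4% over BALF, with 21.5% and 18.2% lower.

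Those called over both were Ighm, Bank1, Cd79b and Fcmr, at a few counts per library for all but Ighm. Bank1 was at least 7.39-fold higher in BMDM than in BALF, with 29 counts against 0. Cd79b had 23 counts in BMDM against 1 in BALF, a ratio of 17.6 (2.86 to 725) that rests on a count in BALF of mouse 4, and its adjusted p over BALF was 0.0503 without BALF of mouse 1 (edgeR). Fcmr had 10 counts in BMDM against 0 in BALF, a fold of at least 2.55, and its call over BALF was lost without any 1 BALF library or without BMDM of mouse 4. Ebf1 was called higher over mexAM, at 17 counts against 2, with groups that overlapped, and the call was lost without BMDM of mouse 4 (adjusted p 0.292, edgeR). Leaving out any single mexAM library or BMDM of mouse 2 also took the adjusted p of Ebf1 above 0.05. Over BALF, Ebf1 had 17 counts against 1 and an adjusted p of 0.0811 with edgeR. It was called with library totals (0.0477), with no filter (0.00652) and without BMDM of mouse 1 (0.00336) in edgeR, and with DESeq2 (0.0269). Bank1 over mexAM had a log2 fold change of 1.81 ± 0.50, and its adjusted p was 0.0655 without BMDM of mouse 1 (edgeR).

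The heavy chain RNA of BMDM came with almost no light chain RNA. The light chain constant genes Igkc and Iglc1 to Iglc4 summed to 0, 0 and 17 counts in BMDM of mice 1, 2 and 4, beside 273, 159 and 143 counts of Ighm. In PLF, the same genes had 1609, 1867 and 2575 counts, beside 2565, 1530 and 2044 of Ighm. Igkc, the kappa constant region, was higher in PLF than in BMDM by 8.85 ± 0.67 on the log2 scale, against 3.75 ± 0.33 for Ighm. All 10 BMDM counts of Igkc lay in mouse 4, and over the alternatives, each library left out in turn among them, its value was 8.13 to 13.49. Counts on heavy and light chain variable, diversity and joining segments numbered 0, 1 and 0 in BMDM, and 12, 15 and 15 in PLF. Such segments were hardly counted even in PLF, where 12766 counts fell on constant genes.

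Among the BMDM, the library of mouse 4 held the traces of other B cell genes. All 10 counts of Igkc, all 3 of Pax5, 13 of 17 of Ebf1, 4 of 5 of Ms4a1, 7 of 10 of Fcmr and 4 of 5 of Ighd lay there. Mzb1, a protein of B cells and plasma cells, had 0, 0 and 4 counts in BMDM of mice 1, 2 and 4. Ighm, Bank1 and Cd79b ran the other way, with Ighm and Cd79b lowest in mouse 4 and Bank1 highest in mouse 1. Most genes on the list of early B cell precursors were near 0 in all BMDM: Rag1, Rag2, Igll1, Vpreb2 and Dntt had 0 counts, and Vpreb1 had 1. The list still summed to 1262 to 1361 CPM in BMDM, against 390 to 404 CPM in PLF, and nearly all of the BMDM sum was Il7r and Cd93. Il7r and Cd93, which are on the same list and are also expressed outside the B lineage, were lower in PLF than in BMDM, with log2 fold changes of -0.87 ± 0.28 for Il7r and -2.10 ± 0.22 for Cd93. The call of Il7r was lost without BMDM of mouse 4 (log2 fold change -0.33, adjusted p 0.251, edgeR) and without PLF of mouse 1 (0.0848) or mouse 4 (0.0573). The neutrophil list summed to 2192 to 5833 CPM in BMDM, with S100a8 at 1250, 847 and 2334 CPM and thus highest in mouse 4. All 12 genes of that list had counts in BMDM. The part of these other cells in the B cell gene counts was not tested.

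**Figure D4:**
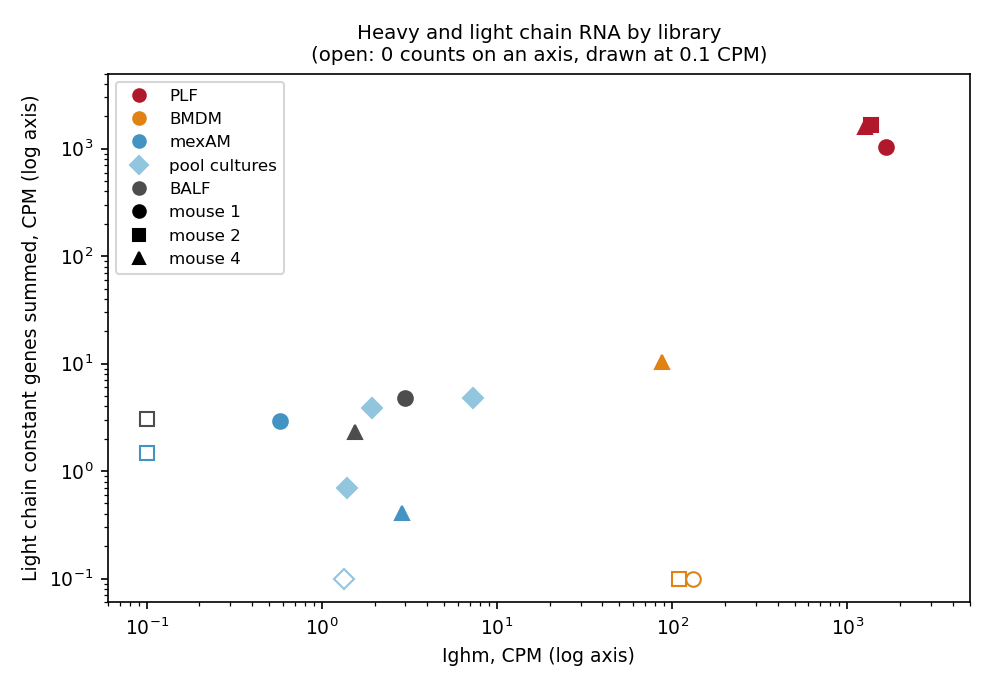
Ighm against the sum of the light chain constant genes in each library, in CPM on log axes; symbols mark the mouse, diamonds the pool cultures, and open symbols had 0 counts on an axis and are drawn at 0.1 CPM. PLF lies at the upper right, and BMDM of mice 1 and 2 lie near 100 CPM of Ighm with 0 light chain counts.

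In mexAM, the pool cultures and BALF, a few counts per library were found, mostly of Ighm and Bank1 in the cultures and of Ighm in BALF. The 9 genes held 23 counts in the 3 mexAM libraries, 34 in the 4 pool libraries and 12 in the 3 BALF libraries, against 12098 in PLF. Between mexAM and BALF, Bank1 was called higher in mexAM, with 1, 3 and 5 counts against 0 in BALF, a fold of at least 1.91, where 15.2% of all genes were called higher, 14.8% lower and 30.0% in either direction. Its adjusted p was 0.0340 (edgeR's quasi-likelihood test, Benjamini-Hochberg), and it was above 0.05 in 5 of the 6 fits that left out a library and with DESeq2. Ighm differed by less than its error between mexAM and BALF, at 8 and 7 counts and a log2 fold change of -0.65 ± 0.87. Of these counts, 7 in mexAM lay in mouse 4 and 5 in BALF in mouse 1, and the value for Ighm was -2.58 without mexAM of mouse 4 and 0.31 without BALF of mouse 1. The other 7 genes had at most 4 counts in either group, and a difference was not detectable at this depth.

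Genes of other peritoneal cells that are abundant in PLF were also counted in these libraries. Prg4, which encodes lubricin and is the most abundant gene of the peritoneal macrophage list in PLF, stood at 4374 ± 260 CPM there. The pooled level of Prg4 was 0.0514% of the PLF level in mexAM, 0.0730% in the pool cultures and 0.139% in BALF. For Cpa3, the mast cell carboxypeptidase, these were 0.0214%, 0.0425% and 0.0673%. For the 9 B cell genes without Ighm they were 0.174%, 0.230% and 0.0911%. These lay above Prg4 and Cpa3 in mexAM and the pool cultures and between them in BALF. With Ighm they were 0.131%, 0.193% and 0.108%. Bank1 alone stood at 0.651% in mexAM and 0.792% in the pool cultures, whereas Cd79b, Pax5 and Fcmr stood at 0% in mexAM. Other peritoneal macrophage genes lay on both sides in mexAM, with Icam2 at 3.17% and Lyz1 at 2.39%, but Selp and Alox15 at 0%. These genes were picked after their values were seen, and whether the residual counts come from cells or from other libraries of the run was not tested.

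Within PLF, the immunoglobulin genes showed which receptor classes were counted. Ighm made up 94.7%, 89.5% and 89.0% of the heavy chain constant counts in mice 1, 2 and 4. Ighd, the constant region of IgD, had 107, 160 and 216 counts, or 3.95%, 9.36% and 9.40% of them. PLF was higher by 6.80 ± 0.53 on the log2 scale over BMDM for Ighd, at least 233-fold over mexAM and at least 148-fold over BALF. Switched classes were few: Ighg2b had 16, 10 and 23 counts, Ighg3 had 12, 5 and 6, and Igha had 9, 4 and 7, while Ighg1 and Ighe had none. Of the 3 switched genes named with counts, Ighg2b passed the filter on low values, and PLF was above BMDM, mexAM and BALF for it, each of which had 0 counts.

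Kappa and lambda light chains were both counted in PLF. Igkc had 643, 1063 and 1059 CPM in mice 1, 2 and 4. The lambda constant genes made up 38.5% (95% exact interval 36.1 to 40.9), 36.2% (34.0 to 38.4) and 33.3% (31.5 to 35.1) of the light chain counts. Iglc2 and Iglc3 are near-identical copies, so their separate values of 241 ± 41.0 and 182 ± 48.4 CPM are uncertain, and another gene on the opposite strand overlaps 20.6% of the exon bases of Iglc3. Whether kappa and lambda 3' ends were counted alike was not tested. Mouse 1 had the lowest Igkc and the highest Ighm, so that Ighm had 1.59 counts per light chain count there, against 0.819 and 0.794 in mice 2 and 4.

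Genes around the receptor were mostly higher in PLF. Of 14 receptor and coreceptor genes, 11 were tested in the fit of the mouse groups. In PLF, 7 were called higher and 1 lower over BMDM, against 18.0% and 18.4% of all genes. Over mexAM 9 were higher and 2 lower, against 29.6% and 28.4%. Over BALF 9 were higher and none lower, against 20.8% and 19.5%. Fcrla, an Fc receptor-like protein of B cells, had 250 ± 34.5 CPM in PLF, a ratio of 634 (175 to 5246) over BMDM and a log2 fold change of 7.59 ± 0.43 over BALF. Others on the list are shared with macrophages. Cd81 was at 179 ± 65.4 CPM in PLF against 480 ± 54.0 CPM in mexAM, a log2 fold change of -1.45 ± 0.31, and Cd180 was at 89.9 ± 18.2 CPM in PLF and 111 ± 7.90 CPM in BMDM. Cd22 and Cd72, inhibitory receptors picked after their values were seen, were higher in PLF than in some groups and lower than in others. Cd22 had 14.9, 59.8 and 48.7 CPM in PLF against 98.1, 74.0 and 57.2 CPM in mexAM, and the log2 fold change of -0.97 ± 0.38 passed the test, while over BMDM it was 3.01 ± 0.50. Cd72 had 3.89, 16.1 and 16.6 CPM in PLF against 67.7, 54.9 and 127 CPM in BMDM, with a log2 fold change of -2.76 ± 0.47, while mexAM and BALF had 0 counts.

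The signalling genes below the receptor were called in both directions. Of 14, 3 were called higher and 4 lower in PLF over BMDM, 6 higher and 4 lower over mexAM, and 4 higher and 4 lower over BALF, with medians of -0.12, 0.16 and 0.04 on the log2 scale. Of all genes, 18.0% were higher and 18.4% lower over BMDM, 29.6% and 28.4% over mexAM, and 20.8% and 19.5% over BALF, and the counts of the list lie mostly near those shares. Syk, a kinase used by B cell and myeloid receptors alike, had 136 ± 8.47 CPM in PLF, 128 ± 12.5 in BMDM, 111 ± 14.1 in mexAM and 116 ± 38.8 in BALF. Blnk, the adaptor that links Syk to phospholipase C, had 98.3 ± 9.502 CPM in PLF and 109 ± 33.3 CPM in BMDM, and 0 counts in BALF. Prkcb, a protein kinase C, was alike in this: its log2 fold change of PLF was 6.07 ± 0.28 over mexAM and 5.73 ± 0.29 over BALF, but -0.53 ± 0.19 over BMDM. The last of these, for Prkcb, missed the threshold with the mouse as a block (adjusted p 0.0563, edgeR), with RLE scaling (0.05004), with no filter (0.0532), and without BMDM of mouse 1 (0.156) or mouse 2 (0.0816) or any 1 PLF library (0.0610 to 0.108). Cd38, an ectoenzyme, had 103, 379 and 335 CPM in PLF and a ratio of 678 (187 to 5609) over BMDM.

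Of 12 transcription factors, 8 were called higher and 1 lower in PLF over BMDM, against 18.0% and 18.4% of all genes. Over mexAM 11 were higher and none lower, against 29.6% and 28.4%. Over BALF 10 were higher and none lower, against 20.8% and 19.5%. Pou2af1, the coactivator of octamer factors, had 169 ± 35.7 CPM in PLF, 3 counts in BMDM, and 0 in mexAM and BALF. Its partner Pou2f2 was at 402 ± 47.6 CPM in PLF and 328 ± 30.9 CPM in BMDM, a difference of 0.33 ± 0.18 on the log2 scale that did not pass the test. Bach2 had 263 ± 49.1 CPM in PLF and a log2 fold change of 5.29 ± 0.31 over BMDM. Irf8, which macrophages use as well, was lower in PLF than in BMDM, at 162 ± 61.1 against 383 ± 42.1 CPM.

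Of 9 tested receptors for trafficking and survival, 7 were called higher in PLF over BMDM, 9 over mexAM and 8 over BALF, and none lower. Of all genes, the shares were 18.0%, 29.6% and 20.8% higher, and 18.4%, 28.4% and 19.5% lower. Cxcr5, the follicular homing receptor, had 88.6 ± 19.5 CPM in PLF, 0 counts in BMDM and mexAM, and 1 in BALF. Tnfrsf13c, the receptor for BAFF, had 80.2 ± 34.1 CPM in PLF, 0 counts in BMDM and BALF, and 1 in mexAM. Tnfrsf13b, which binds BAFF and APRIL, had 54.2 ± 23.7 CPM in PLF and a mean of 66.5 CPM in BMDM, a log2 fold change of -0.27 ± 0.27 that did not pass the test. In these receptors and in the receptor and transcription factor lists, 24 of the 31 genes with at least 10 CPM were lowest in PLF of mouse 1. Of all 7721 genes at that level, 51.1% were. The median level of the 31 genes there was 0.575 times the mean of mice 2 and 4, against 0.896 for all 7721 genes.

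Genes named for B-1 cells, the innate-like B cells of body cavities, were called in both directions. Of 11 tested, 6 were higher and 2 lower in PLF over BMDM, where 18.0% of all genes were higher and 18.4% lower. The counts were 5 higher and 4 lower over mexAM, against 29.6% and 28.4% of all genes, and 4 higher and 3 lower over BALF, against 20.8% and 19.5%. The median log2 fold changes of the list were 1.08, 0.04 and 0.24 in that order. Bhlhe41, a B-1 regulator that alveolar macrophages also express, was at 161 ± 5.73 CPM in PLF against 812 ± 109 CPM in mexAM and 757 ± 61.4 CPM in BALF, with log2 fold changes of -2.38 ± 0.19 and -2.48 ± 0.19. The variable segments used by B-1a receptors had 5 counts in PLF, all on Igkv14-126, and Ighv11-2, Ighv12-3 and Igkv4-91 had 0. Of 5 plasma cell genes tested, 2 were called higher in PLF over BMDM, 3 over mexAM and 3 over BALF, against 18.0%, 29.6% and 20.8% of all genes. Xbp1, a regulator of secretion, was the 1 called lower over BALF, and that call was lost with library totals (adjusted p 0.137, edgeR) and without any 1 library of PLF or BALF (0.0567 to 0.0891). Mzb1 had 130 ± 15.3 CPM in PLF and 0 counts in mexAM and BALF. Jchain, which joins secreted IgM and IgA, had 8, 6 and 11 counts in PLF, and Tnfrsf17 had 0.

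B cell RNA was accompanied in PLF by RNA of other peritoneal cells. The mast cell list summed to 2058 to 2249 CPM in PLF, 7.54 to 22.7 CPM in BMDM, 0.412 to 2.32 CPM in mexAM and 2.03 to 5.40 CPM in BALF, with all 10 genes counted in PLF. T and NK cell genes summed to 252 to 277 CPM in PLF and 2.74 to 6.74 in BMDM. They summed to 23.2 to 25.5 CPM in mexAM and 2.03 to 4.63 in BALF. In mexAM, 11 of the 17 genes had 0 counts, so that sum does not come from the list as a whole. Of 9 tested, 8 were called higher and 1 lower in PLF over mexAM, against 29.6% and 28.4% of all genes. Trbc2, a T cell receptor constant gene, had 64.9, 84.7 and 84.5 CPM in PLF. The peritoneal macrophage list summed to 11836 to 14985 CPM in PLF and 2452 to 2891 CPM in BMDM. It summed to 3037 to 3777 CPM in mexAM and 3409 to 4928 CPM in BALF. Outside PLF, single genes made up much of these sums. On pooled counts, Cd9 stood at 2922 CPM in mexAM and 3837 in BALF, against 624 in PLF. In BMDM, Adgre1 stood at 1404 CPM and Itgam at 853. Others of the list were near 0 outside PLF, with Vsig4 at 0 CPM in BMDM, mexAM and BALF. Lists of plasmacytoid dendritic cells held genes that B cells share: Ly6d was at 181 ± 63.7 CPM and Spib at 63.3 ± 24.9 CPM in PLF, whereas Siglech, which defines these cells, had 0, 0 and 1 count.

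**Figure D5:**
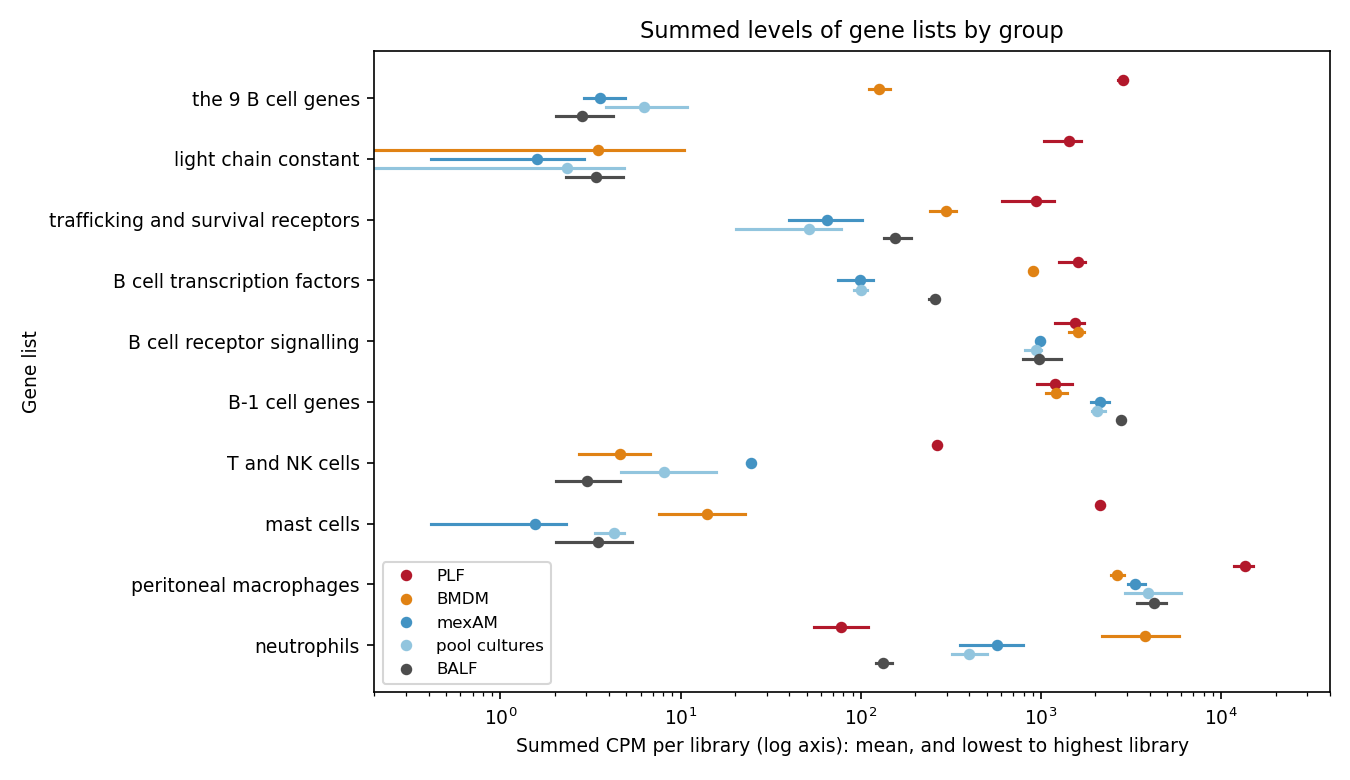
Summed CPM of 10 gene lists by group on a log axis; points are means, bars run from the lowest to the highest library, a bar that reaches the left edge includes a library at 0, and groups run from top to bottom within a list as PLF, BMDM, mexAM, pool cultures and BALF. The 9 B cell genes, light chain, mast cell and T and NK cell lists lie far to the right in PLF, while the signalling and B-1 lists overlap between PLF and BMDM.

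The 10 genes whose log2 CPM followed the sum of the 9 genes most closely over the 16 libraries included St8sia6, Grap, Thbs1, Cd5l, Gpr18, Ripor2, Slc28a2, Cd209a and Lpar1, and the 10 had Pearson's r of 0.982 to 0.989. Candidates had a mean of at least 10 CPM in PLF. Immunoglobulin and T cell receptor genes, predicted genes and pseudogenes were left out. Of 7419 candidates, 254 had an r above 0.9. The filter was set in PLF, where the 9 genes are high, which can favour a high r, so this count is no neutral background. The 16 points fall into groups and share the PLF libraries, so r describes these libraries only. Thbs1, which encodes thrombospondin, was at 5044 ± 536 CPM in PLF, 197 ± 27.4 CPM in BMDM and 4.94 ± 2.43 CPM in BALF. Cd5l, a secreted macrophage protein, was at 411 ± 53.6 CPM in PLF, 38.2 ± 16.4 CPM in BMDM and 0.538 ± 0.510 CPM in BALF. With Spearman's rank correlation none of these 10 genes was among the 10 most alike, and over the 12 libraries of single mice 7 of them were.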

How the data were processed

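RNA of 16 libraries was measured by QuantSeq 3' FWD with a module for unique molecular identifiers, as 65 bp single-end reads, per the labels' protocols. The authors' deposited files hold raw counts per Ensembl gene, 1 file per library. The build was GRCm38 (mm10), per the submitters' processing notes. Not given in the sources used here are the aligner, the counting program, its strand setting, and whether molecular identifiers were collapsed, and intervals and floors cover counting error only. GENCODE M21 named 47224 of 47643 identifiers. The 5 lines without a gene were left out of library sizes, with 10.6% to 29.9% of reads lying outside genes.

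Genes with low counts were removed by filterByExpr. The rest were scaled with TMM, and a robust quasi-likelihood fit was made in edgeR 4.0.16 (R 4.3.3, limma 3.58.1), with Benjamini-Hochberg adjustment over all genes at 0.05. The 12 libraries of single mice gave 10011 genes and 8 residual degrees of freedom. For PLF over the pool cultures, the passages of a pool were summed (14 columns, 10602 genes, 9 degrees of freedom). The fit was tested on simulated data with a single spread for all genes, in which only well-counted genes were changed. That test does not cover genes with few counts or folds as large as those of the B cell genes. DESeq2 1.42.0 was an alternative, with other scalings, no filter, single libraries left out and the mouse as a block. CPM divide a gene's counts by the library's total over genes. Log2 CPM for likeness used a prior count of 2.

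A mouse number shared by groups was read as 1 animal, per the labels. Deviations from group means of same-mouse libraries correlated at -0.118 to 0.220 (median -0.0207), with 2 of 18 pairs above 0.1. Libraries of a group were mice, and the chi-square of every replicate pair exceeded its degrees of freedom by 2.43 to 23.1 times. Both ends of that range lay in PLF. Mouse 1 stood at 19.9 against mouse 2 and at 23.1 against mouse 4, while mice 2 and 4 stood at 2.43.

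The 9 genes and all lists were chosen with earlier results of these data known. Named genes were the 9 genes, up to 6 of each other list with the highest mean in PLF of at least 10 CPM, all immunoglobulin constant genes, and the 10 genes most like the sum of the 9. Others named were picked after their values were seen. A few genes that this rule names are not reported here.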

Additional observations from a re-analysis of the deposited data

How the results depend on the processing

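Fold changes were recomputed for the 9 genes in PLF and, over BMDM, mexAM and BALF, for the named genes of the B cell and immunoglobulin lists. Between the other groups only some of the 9 genes were recomputed, and other genes were not followed. No called difference among those recomputed changed sign under any alternative. Signs changed for 11 differences that were not called (lowest adjusted p 0.466, edgeR), in 22 fits. With 1 library left out, the log2 fold change of mexAM over BALF ran over -2.58 to 0.31 for Ighm. Over BMDM, that of PLF ran over -0.27 to 0.0756 for Bcl10, -0.27 to 0.17 for Blnk, -0.23 to 0.16 for Bcl6, -0.61 to 0.0188 for Tnfrsf13b, -0.0317 to 0.31 for Xbp1 and -0.23 to 0.10 for Txndc5. Over mexAM it ran over -0.26 to 0.44 for Bhlhe40, which was -0.0524 with the replicate block, and -0.31 to 0.32 for Spn. Over BALF it ran over -0.17 to 0.27 for Bcl6 and -0.17 to 0.31 for Syk, which was 0.026 with DESeq2 and 0.0261 with its size factors and 0.23 with library totals. For the 9 genes in PLF, 413 recomputed fold changes kept their direction and their call, and 1 lost its call: Cd79a over the pool cultures with DESeq2 (adjusted p 0.199). Summed CPM of the 9 genes in PLF was 3068 with Gm42418 left out of the totals and 1413 without Ighm, and 2762 to 2934 with 1 mouse left out. Without Ighm it was 17.1 in BMDM and 1.33 in BALF. Counts of called genes with 1 library left out ran from 3391 to 4053 for PLF over BALF, 5232 to 5640 for PLF over mexAM, 3004 to 3627 for PLF over BMDM, 4485 to 5294 for PLF over the pool cultures, 2288 to 2738 for mexAM over BALF, 3142 to 3573 for BMDM over BALF and 3744 to 4419 for BMDM over mexAM. With the mouse as a replicate block the counts were 3506 for PLF over BMDM, 5633 for PLF over mexAM, 3885 for PLF over BALF and 2833 for mexAM over BALF. The block changed no call of the 9 genes, and of the other named genes Prkcb over BMDM and Lyn over BALF (adjusted p 0.0563 and 0.0512) lost theirs, while Cd24a over BALF gained one (0.0203). Scaling by library totals alone moved the median of all genes to 0.27 on the log2 scale for PLF over BALF, 0.32 for BMDM over BALF and 0.22 for mexAM over BALF. The share of calls that were higher was then 66.9%, 69.5% and 67.4%, against 51.6%, 51.5% and 50.6% with TMM. Depth limits the groups near 0, where 3 counts stand at 0.481 to 0.760 CPM.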
